A study of Mus musculus with 3 samples.

Results

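Small regions marked by H3K27me3 alone, 1 to 6 kb wide, were examined in mouse primordial germ cells, from which eggs and sperm later develop. The regions were selected by their measured extent: an H3K27me3 region of 1000 to 6000 bp that shared no base with any called H3K4me3 region, outside chromosomes X, Y and M and outside a stretch of chromosome 5 (chr5:111000001-122000000, mm9) that is rich in the mark. This gave 7147 regions among 18731 H3K27me3 regions of the series. Of the 17500 H3K27me3 regions in the part of the genome kept by the rule, they made up 40.8% (95% Wilson interval 40.1 to 41.6%). Their 16.2 Mb were 28.0% of the H3K27me3 length there.

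The cells came from embryos of a transgenic Oct4:GFP B6 line crossed to Swiss-Webster females. Gonadal regions of several E11.5 embryos were pooled, and GFP-positive cells were sorted. The 2 aliquots held 104000 and 97000 cells, and both were split equally for the antibodies against H3K4me3 and H3K27me3 and for input. Each of the 3 deposited samples stands for 2 replicates. The H3K4me3 and H3K27me3 samples, with 1 list of regions each, were used; the input was not analysed here. All samples share the same genotype, age and sort, and pooled embryos cannot be told apart. The reporter gene itself is active in pluripotent and germ cells; the sorted population could not be checked against marker genes, because genes were not assigned on build mm9 here.

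H3K27me3 is written by Polycomb repressive complex 2 and is found at silent developmental genes. The mark can spread from a nucleation site, usually a CpG island, into broad domains, and PRC2 binds its own product through the subunit EED. H3K4me3 marks CpG-rich and active promoters, and chromatin with both marks is called bivalent. Small H3K27me3 regions without H3K4me3 may therefore lie beside a domain or stand away from promoters, and their position relative to both marks is described here.

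Because the lists give positions alone, sequencing depth is unknown and no replicate error could be given. Intervals are 95% Wilson intervals for the counting of regions, as if these were independent. No test over regions was made, since regions are not replicates. Assembly gaps were not removed from sequence lengths.

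The rule removed regions at each of its edges. X, Y and M held 579 H3K27me3 regions and the stretch of chromosome 5 held 652. Of the regions kept, 4622 were narrower than 1000 bp and 2238 were wider than 6000 bp. The latter are called wide domains below and covered 29.1 Mb. Among the 10640 regions of 1 to 6 kb, 3493 overlapped H3K4me3 and are called bivalent regions, and 67.2% (66.3 to 68.1%) did not. Just below the lower width limit, 1253 regions of 800 bp had no H3K4me3, and just inside it there were 1072 of 1000 bp. At the upper limit, 51 measured 6000 bp and 41 measured 6200 bp. In 84 H3K27me3-only regions an H3K4me3 region touched the edge with no shared base, and 424 bivalent regions shared exactly 200 bp.

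H3K27me3-only regions were mostly narrow. Their median width was 1800 bp (quartiles 1200 and 2800 bp), 15.0% (14.2 to 15.8%) had the minimum width of 1000 bp, and 21.9% (21.0 to 22.9%) were wider than 3 kb. Bivalent regions in the same limits had a median of 2600 bp, with quartiles at 1600 and 4000 bp, and 39.9% (38.3 to 41.5%) were wider than 3 kb. The share of regions free of H3K4me3 was 80.7% at 1000 bp and 49.7% at 4200 to 6000 bp. Width and overlap were used to choose the regions, so these values are a description.

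The regions were then placed by their gap, edge to edge, to the nearest wide domain, a measure the rule did not use. A region with a gap of at most 10 kb was called a satellite and a region with a gap over 100 kb solitary. There were 1866 satellites, 26.1% (25.1 to 27.1%) of the H3K27me3-only regions, against 21.2% of all 10640 regions of 1 to 6 kb. Solitary regions numbered 2774, or 38.8% (37.7 to 39.9%), against 47.1% of all regions of 1 to 6 kb. The other 2507 (35.1%) lay in between. Of bivalent regions, 11.0% (10.0 to 12.1%) were satellites and 64.1% (62.5 to 65.6%) solitary. The median gap to a wide domain was 47200 bp for H3K27me3-only regions and 242800 bp for bivalent regions. Quartiles overlapped, at 9400 to 234500 bp and 45600 to 866200 bp.

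H3K27me3-only regions crowded around wide domains and thinned out with distance. Sequence less than 10 kb from a wide domain was 1.44% of the 2432 Mb outside wide domains and held 52.5 H3K27me3-only regions per Mb. At 100 kb or more the density was 1.27 per Mb, a ratio of 41.3. For bivalent regions the densities were 10.9 and 1.02 per Mb, a ratio of 10.7. Densities within 1 kb of a domain were 85.4 H3K27me3-only and 20.2 bivalent regions per Mb. Of the bands, the H3K27me3-only density was highest at 1 to 2 kb, at 97.2 per Mb. Regions of the list lie at least 200 bp apart, so sequence directly beside a domain can hold neither kind. This lowers the densities within 1 kb, by an amount that was not computed. The H3K27me3-only density fell to 25.6 per Mb at 10 to 20 kb, 6.90 at 50 to 100 kb and 0.683 beyond 500 kb. Bivalent regions were the more frequent kind only in this last band, at 0.773 per Mb. H3K27me3-only regions made up 80.9% (77.0 to 84.3%) of both kinds within 1 kb and 46.9% (44.9 to 48.9%) beyond 500 kb. H3K4me3 itself covered 5.32% of sequence within 1 kb of a domain and 1.17% beyond 500 kb. The part of H3K4me3 coverage in these shares was not tested.

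**Figure D1:**
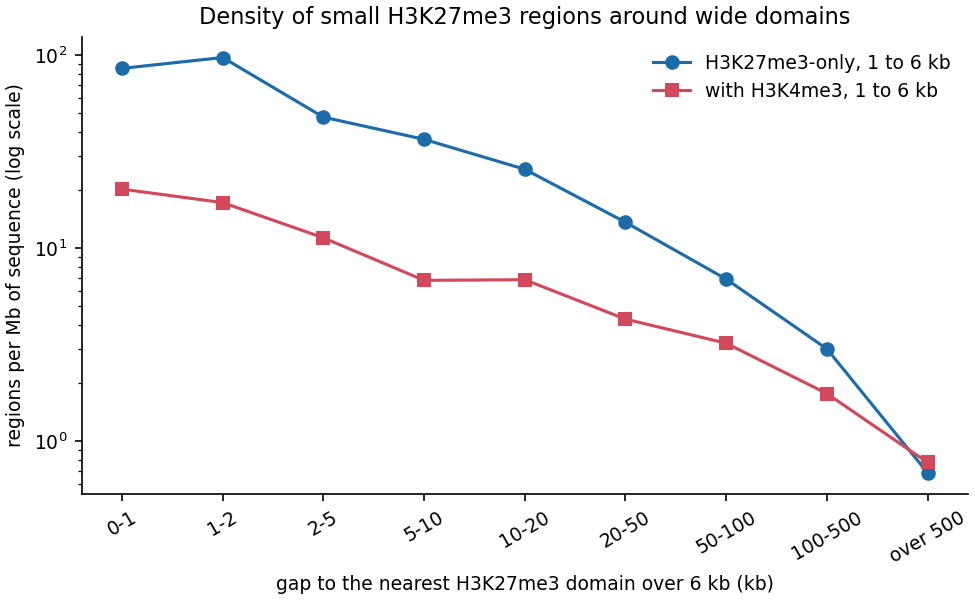
Regions per Mb of sequence (y axis, log scale) in bands of gap to the nearest H3K27me3 domain over 6 kb (x axis, kb), for H3K27me3-only (circles) and bivalent (squares) regions of 1 to 6 kb. H3K27me3-only regions fall from 97.2 per Mb at 1 to 2 kb to 0.683 beyond 500 kb, where the curves cross.

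The difference between both kinds of region was present at every width. Among regions of 1000 bp, 21.2% (18.8 to 23.7%) of the H3K27me3-only and 6.25% (3.88 to 9.91%) of the bivalent regions were satellites. At 1600 to 2000 bp the shares were 22.4% (20.3 to 24.6%) and 7.02% (5.22 to 9.39%). At 4200 to 6000 bp they were 39.0% (35.7 to 42.5%) and 16.3% (13.9 to 19.0%). The intervals of both kinds did not overlap in any of the 6 width classes. The share was highest in the widest class for both kinds. The solitary share of H3K27me3-only regions fell from 44.1% at 1000 bp to 23.9% at 4200 to 6000 bp.

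**Figure D2:**
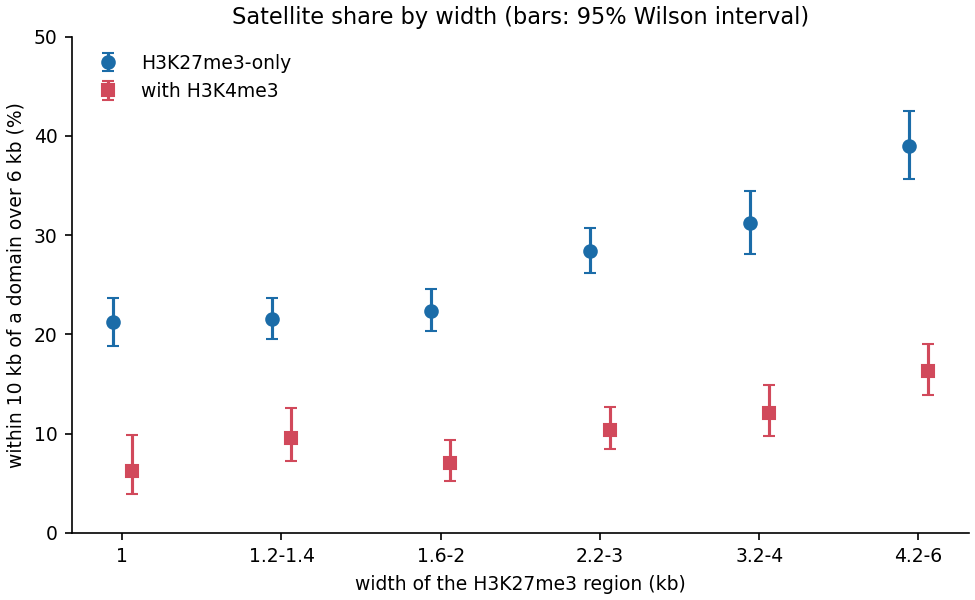
Share of regions within 10 kb of an H3K27me3 domain over 6 kb (y axis, %) by width (x axis, kb) for H3K27me3-only (circles) and bivalent (squares) regions; bars are 95% Wilson intervals. H3K27me3-only regions rise from 21.2% to 39.0% and lie above bivalent regions, at 6.25% to 16.3%, with no overlapping intervals within a class.

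The order also held on each of the 19 autosomes. Satellite shares of H3K27me3-only regions ranged from 21.1% on chromosomes 8 and 10 to 34.8% (28.2 to 42.0%) on chromosome 16. Bivalent shares ranged from 4% (1.57 to 9.84%) on chromosome 16 to 16.7% (10.9 to 24.6%) on chromosome 19. Intervals of both kinds overlapped on 2 of the 19, chromosome 12 with 22.7% (18.1 to 28.0%) and 13.8% (8.99 to 20.5%) and chromosome 15 with 23.0% (18.9 to 27.6%) and 15.5% (10.9 to 21.6%). H3K27me3-only regions were densest on chromosome 11, at 5.14 per Mb, followed by chromosome 5 at 4.57 and chromosome 4 at 4.08, and sparsest on chromosome 3 at 1.10 per Mb. Their density followed that of wide domains across the 19 chromosomes (Pearson r = 0.913, Spearman rho = 0.937, a description over chromosomes that share both lists). Wide domains numbered 1.69 per Mb on chromosome 11 and 0.451 on chromosome 3. The satellite share followed the density of wide domains much less (Pearson r = 0.163, Spearman rho = 0.219). No such relation was computed for bivalent regions.

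**Figure D3:**
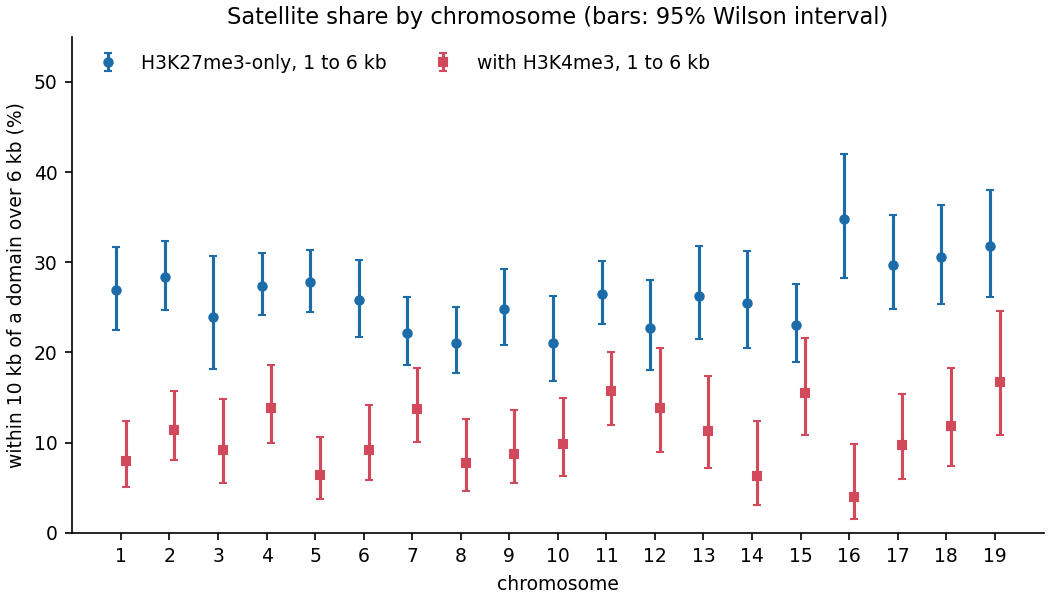
Satellite share (y axis, %) on each autosome (x axis) for H3K27me3-only (circles) and bivalent (squares) regions of 1 to 6 kb, with 95% Wilson intervals. The circle lies above the square on all 19 chromosomes, from the wide separation on chromosome 16 (34.8% and 4%) to overlapping intervals on chromosome 15 (23.0% and 15.5%).

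Satellites lay close to their domains. The median gap was 2800 bp (quartiles 1200 and 6200 bp), and 360 satellites lay less than 1 kb away. The gap was free of H3K4me3 in most cases. H3K4me3 occurred in the gap of 149 of 1866 satellites (7.98%, 6.84 to 9.30%) and in a stretch of equal length on the far side of 176 (9.43%, 8.19 to 10.8%). These intervals overlap. Gap and far side belong to the same satellite, a pairing that the intervals here and below leave out. H3K4me3 covered 1.92% of the gap length and 2.14% of the far side, and 1.97% of the autosomes. All sequence this close to wide domains had more, from 5.32% within 1 kb to 3.52% at 5 to 10 kb. Satellites were chosen to lack H3K4me3, and the part of this choice was not tested. In gaps under 1 kb, 0 of 360 held H3K4me3, which allows a share of up to 0.833% (3 counts of the total), and the far side held it in 8. Another H3K27me3 region lay between satellite and domain in 569 cases (30.5%, 28.4 to 32.6%) and in the equal stretch on the far side in 628 (33.7%, 31.5 to 35.8%), with overlapping intervals. Split by gap length, the sides differed. For gaps under 1 kb the shares were 0.833% (0.284 to 2.42%) between and 5.83% (3.85 to 8.75%) on the far side. At 1 to 5 kb they were 18.4% (16.0 to 21.1%) and 30.8% (27.9 to 33.9%). Over 5 kb the order was reversed, with 66.5% (62.6 to 70.2%) and 54.7% (50.7 to 58.6%). A region between must fit whole inside the gap with at least 200 bp free on each side. On the far side any partial overlap counted. This limits the share between in short gaps, so the values by gap length are a description.

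Many satellites merged with a wide domain once short gaps were bridged. When H3K27me3 regions less than 1 kb apart were joined, 402 satellites (21.5%, 19.7 to 23.5%) became continuous with a wide domain. Joining across less than 2 kb took this to 919 (49.2%, 47.0 to 51.5%) and joining across less than 5 kb to 1571 (84.2%, 82.5 to 85.8%). Small regions also joined to one another into regions over 6 kb. Of the 2774 solitary regions, none of which reached a wide domain, 130 (4.69%), 360 (13.0%) and 935 (33.7%) became part of such a region under the same joining. Joined regions also took in H3K4me3, for 317 (17.0%), 734 (39.3%) and 1319 (70.7%) of the satellites. For solitary regions these were 154 (5.55%), 287 (10.3%) and 564 (20.3%). Such regions would no longer count as H3K27me3-only. The H3K27me3 list held 393 gaps of 200 bp, 551 of 400 bp and 956 of 600 bp. Most solitary regions, 2330 of 2774, had no neighbour to join at 1 kb.

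Wide domains with a satellite were common, and they were more common where the domain lacked H3K4me3. Of 2238 wide domains, 1301 (58.1%, 56.1 to 60.2%) had at least 1 satellite, 188 had 3 or more, and 363 had satellites on both sides. Of the 1866 satellites, 251 (13.5%) lay within 10 kb of more than 1 domain. Domains without H3K4me3 had a satellite in 70.3% (66.7 to 73.7%), and domains with H3K4me3 in 53.1% (50.6 to 55.5%). Among domains of up to 10 kb the shares were 68.6% (64.2 to 72.7%) and 47.4% (43.8 to 51.0%). Among those over 10 and up to 20 kb they were 75.6% (68.6 to 81.5%) and 58.2% (54.2 to 62.1%). Over 20 kb the intervals overlapped, with 67.6% (51.5 to 80.4%) of 37 domains and 58.1% (51.8 to 64.1%) of 241. A bivalent region of 1 to 6 kb within 10 kb lay beside 16.5% (13.9 to 19.6%) of domains without H3K4me3 and 18.1% (16.3 to 20.1%) of those with it, with overlapping intervals. With either kind of small neighbour counted, the shares were 76.5% (73.1 to 79.5%) without and 61.9% (59.5 to 64.2%) with H3K4me3.

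The domains with most satellites had 5 each, counting every H3K27me3-only region within 10 kb, also those nearer to another wide domain. There were 4 such domains, of which the first 3 by position are described. On chromosome 1, a domain of 13.4 kb (chr1:169550401-169563800, mm9) with 1 H3K4me3 region had satellites of 1400 and 1000 bp on the side of lower coordinates, at gaps of 6200 and 1600 bp. Satellites of 1200, 1200 and 1800 bp followed on the other side, at 4600, 7600 and 9400 bp. On chromosome 2, a domain of 25.8 kb (chr2:33555601-33581400) held no H3K4me3. Its 5 satellites measured 1200 to 5000 bp, summed to 14 kb, and lay 18.2 to 64.4 kb from H3K4me3. Another H3K27me3 region over 6 kb ended at -18 kb from its first base. The satellite at -14.4 to -9.40 kb lay nearer to that region. On chromosome 4, a domain of 33.6 kb (chr4:134270801-134304400) with 2 H3K4me3 regions had 3 satellites below and 2 above it, of 1000 to 5200 bp, the nearest at 600 bp. Further wide domains lay at -16.4 to -9 kb and 47.4 to 57.4 kb from its first base. The satellites at -8.20 to -5.40 kb and 42.6 to 45.2 kb lay nearer to those than to this domain. In each of the 3 domains the satellites lay on both sides, and none had an H3K4me3 region within 1 kb.

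**Figure D4:**
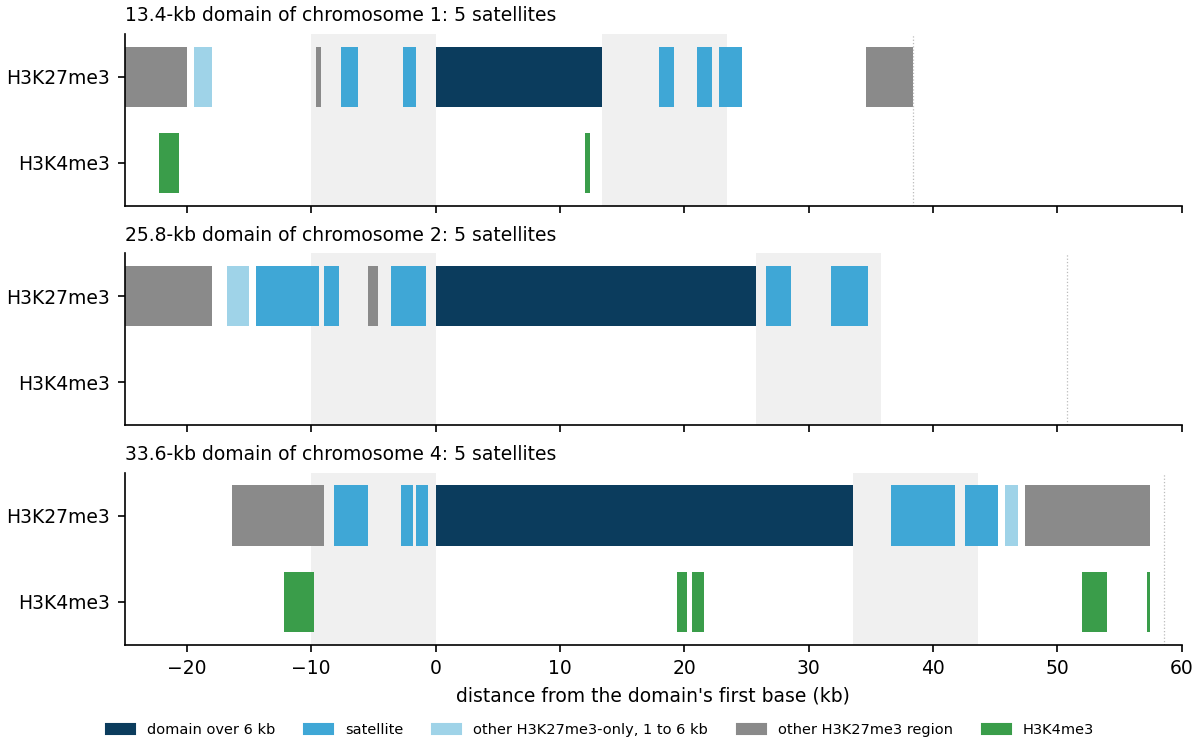
H3K27me3 (upper row) and H3K4me3 (lower row) regions around 3 of the 4 domains with 5 satellites; the x axis is the distance in kb from the domain's first base, the shaded bands are the 10 kb on each side and the dotted line ends the plotted stretch. Satellites lie on both sides of each domain, and no H3K4me3 region is plotted around the 25.8-kb domain of chromosome 2. Regions drawn as other H3K27me3 include further domains over 6 kb.

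The 5 satellites named as widest all measured 6000 bp, the upper limit, as did 24 satellites in all, and they were taken in order of chromosome and position. On chromosome 1 they lay at 74961201 to 74967200, 3600 bp from a domain of 15.4 kb, and at 91854401 to 91860400, 600 bp from a domain of 8.2 kb. On chromosome 2, the satellite at 163145201 to 163151200 was 8.2 kb from a domain of 8.4 kb and 1.6 kb from an H3K4me3 region of 200 bp. On chromosome 4, the satellite at 41455001 to 41461000 touched an H3K4me3 region of 1400 bp, and the satellite at 120042801 to 120048800 lay 1400 bp from a domain of 16.4 kb and 9.6 kb from H3K4me3. Of these 5, 2 therefore lay within 2 kb of H3K4me3 and 3 lay 4 kb or more from it.

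Satellites were wider than solitary regions. Their median width was 2200 bp, with quartiles at 1400 and 3400 bp. Solitary regions had a median of 1800 bp, with quartiles at 1200 and 2600 bp. Of satellites, 29.4% (27.4 to 31.5%) exceeded 3 kb, and of solitary regions 16.0% (14.7 to 17.4%). The median was greater for satellites on 18 of 19 autosomes and equal on the other. Regions at 10 to 100 kb from a domain had a median of 1800 bp and exceeded 3 kb in 22.9% (21.3 to 24.6%). The median width by distance was 2400 bp within 1 kb of a domain and 1600 bp beyond 500 kb.

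H3K4me3 was seldom next to an H3K27me3-only region but often in its neighbourhood. The rule left out regions that overlap H3K4me3, which bears on the shortest distances, so their scarcity is a description. No share of unmarked sequence was computed for 1 kb. The median gap to the nearest H3K4me3 region was 11.8 kb (quartiles 4.6 and 28.2 kb), 6.65% (6.09 to 7.25%) had H3K4me3 within 1 kb, and 27.3% (26.3 to 28.4%) within 5 kb. Of the autosomal sequence free of both marks, 13.6% lay within 5 kb of H3K4me3. A region has a width and a position in sequence has none, so these percentages are set side by side without a ratio. More than 100 kb separated 355 regions (4.97%, 4.49 to 5.50%) from H3K4me3. The nearest H3K4me3 region had a median width of 600 bp, against 800 bp for all 46216 H3K4me3 regions of the kept part, and measured 200 bp in 25.9% (24.9 to 26.9%), against 25.7% of all.

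Satellites were nearer to H3K4me3 than solitary regions by their median gap, at 8.2 kb (quartiles 4.0 and 15.6 kb) against 13.2 kb (4.4 and 38.2 kb). This order held on all 19 autosomes. Within 5 kb of H3K4me3 lay 32.6% (30.5 to 34.7%) of satellites and 28.0% (26.3 to 29.7%) of solitary regions, an order seen on 14 of 19 autosomes. These intervals were apart, but they overlapped under 3 of the 9 alternatives (regions under 1 kb apart joined, the chromosome 5 stretch kept, and a satellite limit of 20 kb). Within 1 kb the order was the other way, with 6.38% (5.36 to 7.58%) of satellites and 8.07% (7.12 to 9.15%) of solitary regions, and these intervals overlap. Over 50 kb from H3K4me3 lay 6.06% (5.06 to 7.23%) of satellites and 19.3% (17.9 to 20.8%) of solitary regions.

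The distance of satellites to H3K4me3 differed with the H3K4me3 inside their domains. Satellites lie within 10 kb of a domain by definition, so this split partly sets their distance to H3K4me3. The values are therefore a description. For 835 of 1866 satellites (44.7%, 42.5 to 47.0%) the nearest H3K4me3 region overlapped the domain itself. Where the nearest domain carried H3K4me3, the median gap of its 1173 satellites to H3K4me3 was 6.0 kb and 42.7% (39.9 to 45.6%) lay within 5 kb. Where it carried none, the median gap of 693 satellites was 19.0 kb and 15.4% (12.9 to 18.3%) lay within 5 kb, below the share of solitary regions. Satellite widths were alike beside both kinds of domain, with medians of 2200 and 2400 bp. Satellites as a group lay nearer to H3K4me3 than solitary regions by the median, and satellites of H3K4me3-free domains lay farther from it by the median. Quartiles of the latter were 9000 and 37200 bp, against 4400 and 38200 bp for solitary regions, so the upper quartile was not greater.

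The flanks of the regions showed the same arrangement. H3K27me3 covered 7.71% of the first kb beside satellites and rose to 54.5% at 7 to 10 kb, then fell to 24.2% at 40 to 50 kb. Beside solitary regions it rose from 3.20% in the first kb to 12.9% at 3 to 4 kb and fell to 3.42% at 40 to 50 kb. The share of the autosomes was 2.50%, wide domains included. Flanks of solitary regions hold no wide domain by definition, so these values are not like for like. A gap must separate neighbouring regions of a list, which lowers the first value. The nearness of a wide domain chose the satellites, so their high H3K27me3 flanks are a description. H3K4me3 covered 1.11% of the first kb beside satellites, 6.31% at 10 to 15 kb and 4.42% at 40 to 50 kb. Beside solitary regions it covered 1.82% of the first kb and between 2.62% and 3.16% from 1 to 50 kb, above the autosomal 1.97%. Bivalent regions had 13.4% in the first kb and 4.05% to 6.53% beyond it. Overlap with H3K4me3 was used to choose both kinds, which bears on the first kb.

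**Figure D5:**
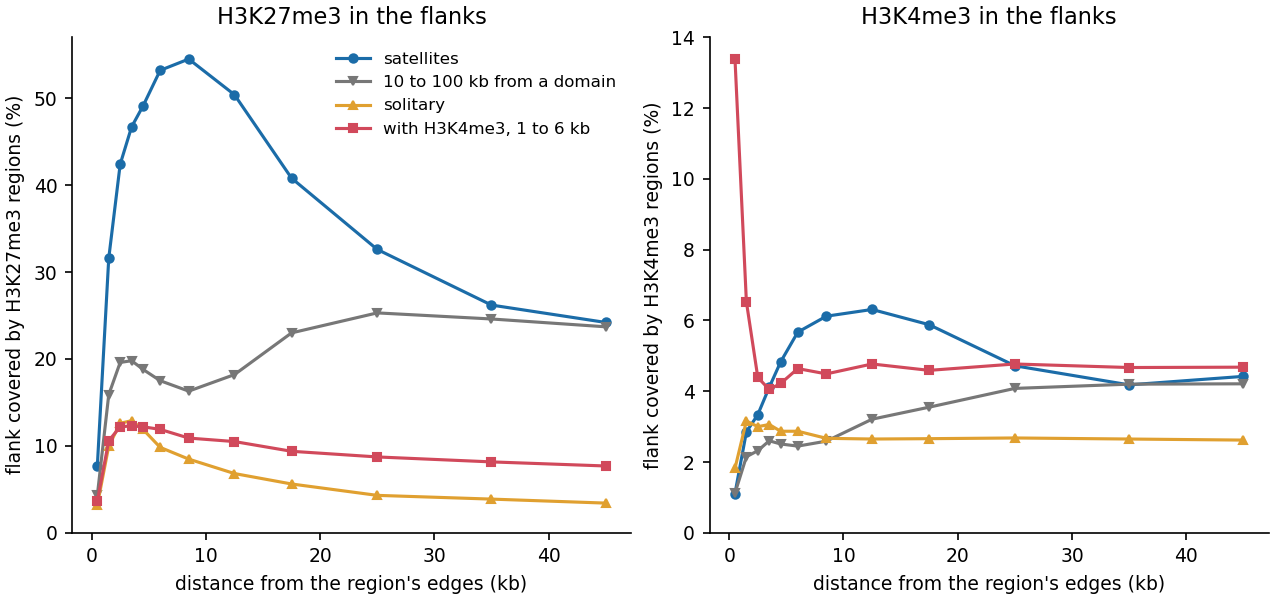
Share of flanking sequence (y axes, %) covered by H3K27me3 (left) and H3K4me3 (right) regions against distance from the edges of a region (x axes, kb), for satellites, regions 10 to 100 kb from a wide domain, solitary regions and bivalent regions of 1 to 6 kb. H3K27me3 peaks at 54.5% beside satellites and at 12.9% beside solitary regions, and H3K4me3 beside solitary regions stays between 2.62% and 3.16% from 1 kb outward.

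Solitary regions, though far from wide domains, differed in how close other H3K27me3 regions were. Their median gap to any other H3K27me3 region was 5.6 kb (quartiles 1.6 and 30.4 kb), and 49.2% (47.4 to 51.1%) had a neighbour within 5 kb. For these 1366 regions the nearest neighbour was another H3K27me3-only region of 1 to 6 kb in 700 cases (51.2%, 48.6 to 53.9%), a region under 1 kb in 424 (31.0%, 28.6 to 33.5%), and a region overlapping H3K4me3 in 348 (25.5%, 23.2 to 27.9%); a neighbour under 1 kb can also overlap H3K4me3. Of all bivalent regions, solitary or not, 42.3% (40.7 to 43.9%) had an H3K27me3 neighbour within 5 kb, against 65.7% (64.6 to 66.8%) of all H3K27me3-only regions. More than 100 kb from any other H3K27me3 region lay 310 solitary regions (11.2%, 10.1 to 12.4%). Only 69 regions (0.965%, 0.764 to 1.22%) were over 100 kb from both marks. The nearest H3K27me3 region with H3K4me3, of any width, was a median of 57800 bp from solitary regions and 5000 bp from satellites. The classes partly set these medians, which are therefore a description. For 62.9% of satellites the nearest wide domain carried H3K4me3, and solitary regions have no wide domain within 100 kb.

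The widest solitary regions were at the 6000-bp limit too, which 8 reached. The first 5 by position lay 174200 bp to 2.44 Mb from a wide domain. On chromosome 4, a region at 94966201 to 94972200 had no other H3K27me3 within 224800 bp and no H3K4me3 within 48.4 kb. On chromosome 2, a region at 154761601 to 154767600 had both another H3K27me3 region and an H3K4me3 region 800 bp away, although the nearest wide domain was 1.10 Mb off. The other 3 lay on chromosome 7 (121860601 to 121866600) and on chromosome 11 (32855801 to 32861800 and 82459401 to 82465400), with H3K4me3 at 17.4, 29.4 and 10.8 kb. Solitary regions of the same width thus ranged from isolated to closely accompanied.

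The 5 regions farthest from a wide domain were 1200 to 2800 bp wide. On chromosome 16, regions of 1200 bp (58701801 to 58703000) and 1600 bp (57627401 to 57629000) lay 19.5 and 18.9 Mb from a wide domain. The next 3 were near the start of chromosome 5, at 3288001 to 3289200 (1200 bp), 4759401 to 4760800 (1400 bp) and 5310801 to 5313600 (2800 bp), and 16.5 to 18.6 Mb from a wide domain. Their gaps to H3K4me3 ran from 0, for the region of 1400 bp, to 44.6 kb, for the region of 2800 bp.

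H3K27me3-only regions also formed runs with one another. With neighbours less than 5 kb apart and no other H3K27me3 region between them, 2617 regions (36.6%) fell into 1101 runs of 2 or more, with a median span of 7600 bp. Satellites were 28.6% and solitary regions 29.5% of the regions in these runs, against 24.7% and 44.2% of the 4530 that stood alone by this measure. Of these runs, 795 held 2 regions, 290 held 3 or 4 and 16 held 5 or more. H3K4me3 lay inside the span of 26 runs (2.36%). It could lie only in the gaps, because the regions lack it by the rule and bivalent regions end a run. This low share is therefore a description.

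The longest run spanned 53 kb of chromosome 12 (109670601 to 109723600) with 14 regions and no H3K4me3. Its regions were 1000 to 5400 bp wide (median 2000 bp) with gaps of 400 to 3400 bp (median 1200 bp), and they covered 67.5% of the span. All 14 lay between the satellite and solitary limits, 22.2 to 73.2 kb from a wide domain, and 8.6 to 45.2 kb from H3K4me3. The next run spanned 32 kb of chromosome 14 (118686601 to 118718600) with 7 regions of 1600 to 4800 bp, ended 600 bp from a wide domain, and lay at least 43.6 kb from H3K4me3. The third longest spanned 31.4 kb of chromosome 4 (131133001 to 131164400) with 6 regions of 1000 to 5000 bp, 80000 to 108400 bp from a wide domain. Each of the 3 spans exceeded 6 kb, so each would count among the wide domains if its gaps had been bridged.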

How the data were processed

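ChIP-seq of H3K4me3 and H3K27me3 in sorted E11.5 germ cells gave 1 deposited list of regions per mark, with an input that was not analysed here. Build mm9 and the aligner Bowtie 0.12.7 are named in the submitters' processing notes. The authors' files, named as contiguous ChromHMM regions (a hidden Markov model segmentation), hold positions in bp on a 200-bp grid. How the segmentation was set, what role the input had and how replicates were pooled is not given in the sources used here. A lower or higher calling threshold would change widths, gaps and overlaps.

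Gaps were measured edge to edge and are 0 where regions touch. Autosome lengths came from GenomeInfoDb 1.38.1, and all regions of the 19 autosomes ended inside the mm9 lengths. Python 3.11.15, numpy 2.4.6, pandas 2.3.3 and scipy 1.17.1 were used. Gap and class assignment was tested on simulated regions. No mm9 gene annotation or genome was used, so position in genes, base composition, the gene and cell marker lists planned for them and sequences are not analysed here. Named regions were the 5 widest satellites, the 5 widest solitary regions, the 5 farthest from a wide domain, 3 domains with most satellites and the 3 longest runs, with ties by position. The regions and limits were chosen with earlier results of these data known. Alternatives covered the H3K4me3 list, joining, width limits, the satellite limit, the domain limit and the part of the genome. Joining across 2 and 5 kb, runs, flanks, chromosomes and the division by domain H3K4me3 were added after the data were seen.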

Additional observations from a re-analysis of the deposited data

How the results depend on the processing

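Of 108 values computed for 14 results under 9 alternatives, 71 stayed inside the reported Wilson interval, or within 1.5 times for counts and medians, and 37 did not. Results on all H3K27me3-only regions were not run under the satellite and domain limits. Solitary results could not change under the satellite limits, because the 100 kb limit was fixed, and count among those that stayed. In all 9 alternatives satellites were a larger share of H3K27me3-only than of bivalent regions, were wider than solitary regions by the median, and lay more often within 5 kb of H3K4me3, by 1.53 (limit of 20 kb) to 9.23 percentage points (limit of 5 kb). For this last comparison the intervals of satellites and solitary regions overlapped under 3 alternatives: joined regions, the chromosome 5 stretch kept and the limit of 20 kb. With a satellite limit of 5 kb the satellite share was 17.7% (bivalent 7.96%), 37.2% of satellites lay within 5 kb of H3K4me3 and 48.4% of wide domains had one. With 20 kb these were 36.5%, 16.9%, 29.5% and 70.0%. With domains over 10000 bp the satellite share was 14.3% (bivalent 5.64%), the solitary share 57.5% and the share of domains with a satellite 61.3%. With H3K4me3 regions wider than 400 bp alone, the regions were 44.4% of kept H3K27me3 regions and 73.0% of those of 1 to 6 kb, 19.1% lay within 5 kb of H3K4me3 (satellites 23.4%, solitary 19.4%), the median gap to it was 18200 bp, the bivalent satellite share was 9.38% and 60.5% of domains had a satellite. With regions under 1 kb apart joined, the values were 39.8%, 64.7%, 23.5% (satellites 27.2%, solitary 24.5%) and 49.2% of domains. With a distance of at least 1 kb from H3K4me3 they were 38.5%, 63.4% and 23.0% (satellites 28.7%, solitary 22.6%). Widths of 1400 to 5000 bp gave 28.9%, 65.8%, a solitary share of 37.5% and 48.3% of domains. With the stretch of chromosome 5 kept, satellites were 27.5% and solitary regions 37.4%. By construction, fewer or more regions enter each alternative or regions change class. Other causes were not tested. Replicates could not be paired because each mark has 1 list, for which they cannot be separated. The gap and the far side of a satellite were compared without their pairing. The lists carry no read counts, so what depth limits is unknown.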

Other observations

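H3K27me3-only regions were unevenly spread along the autosomes. Of 2471 windows of 1 Mb, 1206 held at least 1 and 1265 held none, while 61 windows with 20 or more held 1600 regions (22.4%). The fullest windows, picked after their values were seen, were chromosome 5 from 127 to 128 Mb with 40 regions, chromosome 2 from 180 to 181 Mb with 37, and chromosome 4 from 125 to 126 Mb and chromosome 8 from 123 to 124 Mb with 36 each. They differed in H3K4me3. The chromosome 5 window had 9 H3K4me3 regions and a median gap to H3K4me3 of 66.7 kb, and the chromosome 8 window had 59 H3K4me3 regions and a median gap of 14.7 kb. Of the 40 regions in the chromosome 5 window 11 were satellites and 5 solitary, and of the 36 in the chromosome 8 window 20 were satellites and 1 was solitary.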
